A study of Caenorhabditis elegans with 12 samples.

Results

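Which genes lost and which gained small RNAs when the P granule proteins MEG-3 and MEG-4 were missing was read from 4 of the 12 small RNA libraries of a Caenorhabditis elegans series. They were the 2 libraries of animals mutated in both genes, genotype meg-3(ax3055) meg-4(ax3052), together with 2 of wild-type N2 that were likewise made from RNA treated with 5′ polyphosphatase. The 4 libraries were chosen by their labels, with no measured value. All animals, the controls included, were whole young mothers, synchronized by starvation, kept at 20 °C and fed HT115 bacteria that produce 400 nt of double-stranded RNA against pos-1, so every value describes worms during this feeding. The title of meg-3 meg-4 replicate 2 carries a strain number with transposed digits against that of replicate 1, while both genotype labels are the same. Libraries from untreated RNA of both strains, and treated libraries of the mutant rde-11(hj37), 2 per group, are set beside these where stated. Nothing in the labels says that replicates came from separate cultures, so p-values measure only the spread between these libraries, which may be technical.

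22G RNAs are antisense small RNAs that RNA-dependent RNA polymerases copy from a target transcript and that Argonaute proteins use to silence or license that transcript. They begin with a triphosphate, which the ligation step of small RNA cloning rejects, and polyphosphatase turns it into a monophosphate that can be cloned. MEG-3 and MEG-4, a pair of disordered proteins, stabilize P granules, condensates of germ cells in which many small RNA factors and their target transcripts gather. A small RNA level against a gene is not that gene's expression.

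Each value below is the number of fragments assigned to a gene, scaled to the total of its library (fpm), with no correction for gene length. Levels are therefore compared between libraries and not between genes, and where genes are grouped by level, the level stands for the reads behind a value. The 4 libraries held 4189401 to 5278777 assigned reads, and 1 read was worth 0.189 to 0.239 fpm. Changes are meg-3 meg-4 minus N2 on the log2(fpm + 1) scale, which understates those of low genes. Calls were made with limma over all genes whose mean reached 1 fpm, at a Benjamini-Hochberg adjusted p under 0.05, and "rose" and "fell" are used of called genes only. No exact permutation p is given for single values, since 2 libraries against 2 cannot go below 0.333. In bulk libraries of whole animals, fewer cells of a type and less small RNA per cell cannot be told apart. Because strand was not stated for the counting, reads of overlapping genes cannot be told apart either, and overlaps are named beside the genes.

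The loci of the mutations tested the genotype labels. For meg-4, 72.5 and 71.4 fpm were found in N2, or 356 and 299 reads, against 0 and 2 reads in the mutant libraries (log2 change -5.96, SE 0.27, limma adjusted p = 5.6e-05). Those of meg-3 stood at 9.78 and 14.3 fpm in N2 and 1.06 and 1.33 fpm in meg-3 meg-4 (log2 change -2.55, SE 0.29, limma adjusted p = 0.00153). Both genes were low in both mutant libraries, and neither pair of groups overlapped. The stage of the animals was read from microRNAs, none of which passed the test among the 16 markers of stage and tissue (3 had an unadjusted p under 0.05, and edgeR called 0). Without meg-3 meg-4 replicate 1, 4 of them were lower, and without replicate 2, 2 were higher. The summed level of these markers was 21894 and 18730.4 fpm in N2 and 21718 and 18023 fpm in meg-3 meg-4, and none was at 0. That sum pools opposite changes: 50% of the 16 were below 0, and they ran from -0.44 to 0.80 (median 0.003). In the changes deposited by the authors, mir-35 to mir-42 ran from -0.23 to 0.08, and the other markers from 0.25 to 1.07. The sum therefore does not show a matched stage. With microRNAs centred, a scaling that lowers every change, limma called 3 of these markers lower and 0 higher. With the replicate number as a block in the fit, it called 3 lower and 2 higher. A difference in stage therefore remains possible. mir-35, a microRNA of oocytes and embryos, had 3723 and 3184 fpm in N2 and 3280.4 and 2552 fpm in meg-3 meg-4 (log2 change -0.25, SE 0.13, limma adjusted p = 0.366). let-7, which marks late larvae and adults, had 2245 and 1674 and then 2363 and 1999 fpm (log2 change 0.16, SE 0.15, limma adjusted p = 0.666). The muscle microRNA mir-1 and the neuronal microRNAs mir-124 and lsy-6 were present in all 4 libraries.

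Losses outnumbered gains. Of 16253 genes tested, 8.27% were called: 1093 fell (6.72%) and 251 rose (1.54%) in meg-3 meg-4. Among the 11006 protein-coding genes tested, 984 fell (8.94%) and 206 rose (1.87%), and these shares and the median change of -0.15 are the background for every list below. The lists were chosen with earlier results of these data known, so their shares and any ranking of them are a description. Most calls lay outside the lists: 705 of 8414 protein-coding genes in no list fell and 163 rose. The genes that fell went from 154587 and 151139 fpm in all in the N2 libraries to 64089 and 59534 fpm. The genes that rose went from 115855 and 115756 fpm to 199085 and 186192 fpm. Those sums describe the genes the test picked and are no separate result. The groups did not overlap in any of the 251 and 1093 called genes, nor in 7521 of the 16253 genes tested. A lack of overlap therefore adds nothing to a call. Genes that rose had more reads behind them, with a median of 123 fpm over the 4 libraries against 25.8 fpm for genes that fell. Only 39 of the genes that fell had at most 3 reads in each meg-3 meg-4 library, so most losses were partial at this depth.

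The counts moved with single libraries. Without N2 replicate 1 or replicate 2, 606 and 599 genes fell and 142 and 137 rose. When replicate 1 or 2 of meg-3 meg-4 was left out, 1767 and 1947 fell and 989 and 443 rose. In the fits with 1 library in a group, that library is assumed to vary like the other group. Scaling moved the balance too: calls were 18.7% higher ones, and 8.46% with microRNAs centred (118 higher, 1277 lower), a scaling that lowers every change by 0.25. Below, 4 counts in brackets after a list's count are those of the fits without N2 replicate 1, N2 replicate 2, meg-3 meg-4 replicate 1 and meg-3 meg-4 replicate 2, in that order. Some lists with few or no calls in the fit of all 4 libraries had many in the fits without a meg-3 meg-4 library.

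**Figure D1:**
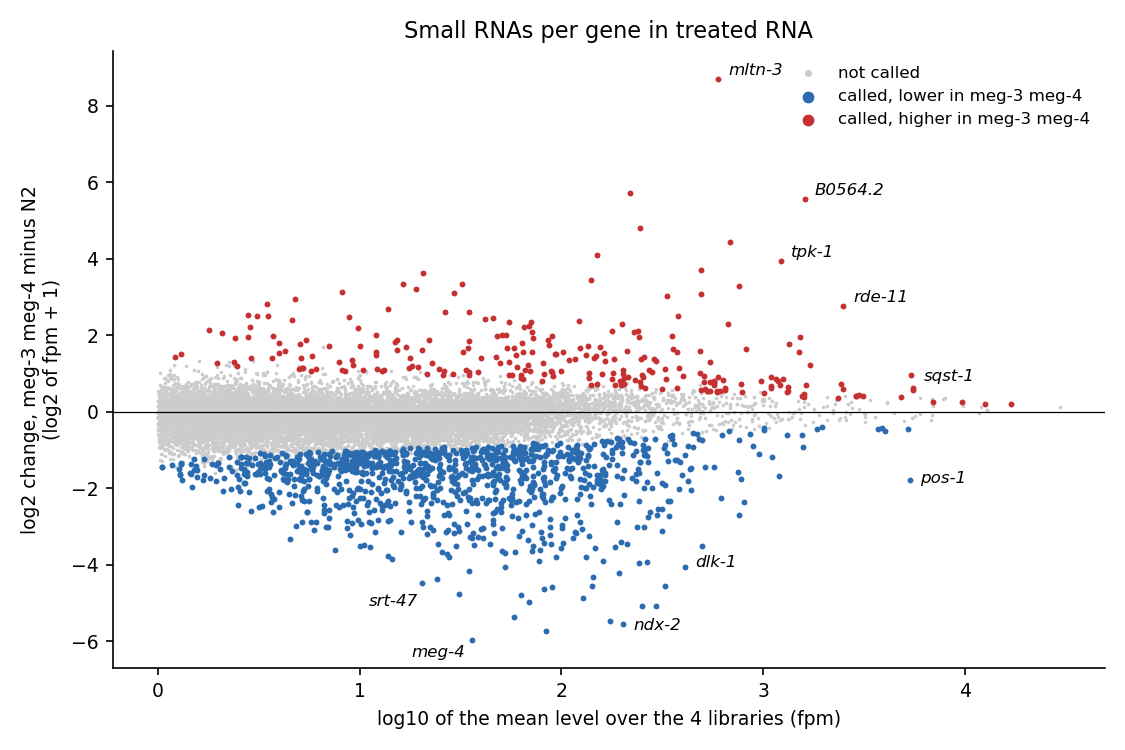
Each point is 1 of the 16253 genes tested, at its mean level over the 4 treated libraries (log10 of fpm) and its log2(fpm + 1) change, meg-3 meg-4 minus N2. Blue genes fell, red genes rose and grey ones were not called. Calls below 0 are denser and lie mostly at 3 to 300 fpm, while mltn-3, at 8.71, lies above all others.

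The fed target itself was among the largest losses in fpm. Small RNAs of pos-1, which encodes a maternal zinc finger protein, stood at 8765 and 7819 fpm in N2 and 2776 and 2119.6 fpm in meg-3 meg-4 (log2 change -1.77, SE 0.12, limma adjusted p = 2.3e-04). The mutant libraries differed from each other by less than they differed from either N2 library. How much of this is the fed double-stranded RNA itself, on either strand, was not tested.

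Among genes of RNA interference, rde-11 had the largest rise. It encodes a zinc finger protein that promotes amplification of exogenous RNA interference. Its small RNAs stood at 636 and 631 fpm in N2 and 4352 and 4367 fpm in meg-3 meg-4, a 6.88-fold rise (log2 change 2.78, SE 0.08, limma adjusted p = 1.6e-05), and the replicates of each strain lay close together. The next gene on the same strand, B0564.2, had 61.7 and 69.2 and then 3255 and 3036 fpm (log2 change 5.57, SE 0.13, limma adjusted p = 8.3e-06). B0564.2 overlaps the bestrophin genes best-1 and best-2, whose reads cannot be told apart from its own here. sid-1, which encodes a channel for the uptake of double-stranded RNA, had 640.5 and 656 and then 991 and 875 fpm (log2 change 0.52, SE 0.12, limma adjusted p = 0.036). sid-1 lost its call without N2 replicate 1 and without N2 replicate 2 (limma adjusted p = 0.347 and 0.261). Nor was sid-1 called with microRNAs centred (limma adjusted p = 0.316) and with the median gene centred (adjusted p = 0.167).

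Of 28 genes of exogenous RNA interference tested, rde-11 and sid-1 rose [1, 1, 10 and 2] and 0 fell [0, 0, 0 and 6] (median 0.05). Among 23 Argonaute genes, whose proteins carry small RNAs to their targets, the locus wago-2, annotated as a pseudogene, rose from 468 and 521 to 759 and 693 fpm (log2 change 0.55, SE 0.13, limma adjusted p = 0.0394) and 0 fell (median 0.00). In the fits without 1 library, 0, 0, 6 and 1 higher and 0, 0, 0 and 4 lower Argonaute genes were called, in the order given above. How many RNA interference and Argonaute genes passed the test, and in which direction, thus depended on single meg-3 meg-4 libraries. wago-2 lost its call without N2 replicate 1 and without N2 replicate 2 (limma adjusted p = 0.478 and 0.21). With microRNAs or the median gene centred, wago-2 was not called (limma adjusted p = 0.343 and 0.124). None of 28 genes of CSR-1, piRNA-making and ERI complexes was called (5 with an unadjusted p under 0.05), while edgeR called 1 higher, and without 1 library limma called 0, 0, 9 and 1 higher and 0, 0, 0 and 6 lower. Among 28 germ granule genes and 25 genes of nuclear and inherited silencing, the called ones were meg-3, meg-4 and sid-1. Without 1 library, limma called 0, 0, 11 and 0 higher and 2, 2, 2 and 8 lower among the germ granule genes and 0, 0, 8 and 1 higher and 2, 2, 3 and 4 lower among those of nuclear and inherited silencing. Among 10 reported targets of the ERGO-1 and NRDE-3 Argonautes, the gene Y47H10A.5 rose from 1806 and 1822 to 2639 and 3428 fpm (0.73) and E01G4.5 fell from 582 and 456 to 152 and 121 fpm (-1.91). With microRNAs centred, Y47H10A.5 was not called (limma adjusted p = 0.214).

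The largest rise was at a molting gene. mltn-3, a relative of the molting gene mlt-10, had 1.22 and 2.63 fpm in N2, from 6 and 11 reads, and 1286 and 1098 fpm in meg-3 meg-4 (log2 change 8.71, SE 0.28, limma adjusted p = 1.6e-05). Both meg-3 meg-4 libraries lay far above both N2 libraries, which were close to the limit of detection. mltn-4, annotated as a pseudogene, went from 0.815 and 0 to 5.71 and 4.93 fpm (2.23), and mltn-5 from 0.204 and 0 to 7.19 and 6.44 fpm (2.83). Whether reads of mltn-3 were also assigned to them was not tested. The gene beside mltn-3 on the same strand, citk-1, which encodes a citron kinase relative, moved the other way, from 367 and 344 to 108 and 123 fpm (log2 change -1.62, SE 0.16, limma adjusted p = 0.00102).

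Single genes of metabolism and mitochondria were among the other rises. In the 10 metabolism and stress lists, 4 of 293 genes tested rose (1.37%), a share below the background. tpk-1 encodes thiamine pyrophosphokinase, which makes the active form of vitamin B1, and its small RNAs went from 157 and 142 to 2386 and 2222 fpm (log2 change 3.94, SE 0.13, limma adjusted p = 1.6e-05). aldo-1, an aldolase gene of glycolysis, rose from 23.03 and 12.7 to 79.3 and 105 fpm (log2 change 2.35, SE 0.32, limma adjusted p = 0.00362). hint-3, of the histidine triad hydrolases, rose from 21.6 and 23.4 to 132 and 106 fpm (log2 change 2.34, SE 0.22, limma adjusted p = 7.5e-04). In each of these 3 genes, both mutant libraries lay above both N2 libraries by far more than the replicates differed. qdpr-1, a dihydropteridine reductase gene of tetrahydrobiopterin recycling, rose from 622 ± 43.8 to 2428 ± 207 fpm (mean ± SD, n = 2; 1.96), and mif-2, of the macrophage migration inhibitory factor family, from 226 ± 22.7 to 1110.3 ± 109 fpm (2.29). Among the 69 mitochondrial ribosomal protein genes, mrpl-36 (101 to 264 fpm, 1.37) and mrpl-35 (58.2 to 102 fpm, 0.80) rose [1, 1, 8 and 2] and 0 fell [0, 0, 0 and 5]. mrpl-35 lost its call without N2 replicate 1 and without N2 replicate 2 (limma adjusted p = 0.431 and 0.489).

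Genes with no function given here made up much of the rest. B0261.8 (61.04 to 1314 fpm, 4.46), T05G5.1 (68.6 to 913 fpm, 3.71), T16H12.2 (143 to 1380.0 fpm, 3.28), C15F1.8 (103 to 885 fpm, 3.09), Y94H6A.12 (22.4 to 259 fpm, 3.46) and F26A3.4 (66.8 to 335 fpm, 2.31) rose, with limma adjusted p-values up to 3.6e-04, and none of them overlaps another annotated gene. Some of the rises with large differences in fpm were at genes that were already abundant in N2, while others, as at B0564.2 and tpk-1, were not. Y54G11A.14 went from 3751 and 3592 to 7544 and 6884 fpm (log2 change 0.97, SE 0.07, limma adjusted p = 2.2e-04), and both mutant libraries lay far above both N2 libraries. sqst-1, which encodes the autophagy receptor related to p62, went from 4501 and 4433 to 6871 and 6417 fpm (log2 change 0.57, SE 0.06, limma adjusted p = 0.00126). It was not called with microRNAs centred (limma adjusted p = 0.0672) and with the median gene centred (adjusted p = 0.218).

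Single genes of signalling and transcription rose. ceh-20, which encodes a Pbx-type homeodomain cofactor, went from 387 and 412 to 1298 and 1207 fpm (log2 change 1.65, SE 0.12, limma adjusted p = 2.3e-04). gcy-35, a soluble guanylyl cyclase gene of oxygen sensing, went from 5.09 and 5.49 to 59.6 and 47.4 fpm (log2 change 3.11, SE 0.24, limma adjusted p = 3.5e-04). unc-73, which encodes a Trio-like guanine nucleotide exchange factor of axon guidance, went from 6.93 and 11.7 to 53.1 and 68.2 fpm (log2 change 2.61, SE 0.30, limma adjusted p = 0.00176). ceh-20, gcy-35 and unc-73 overlap other annotated genes. Smaller levels stood behind the rises of ift-20 (2.93 to 35.2 fpm, 3.21), frpr-13 (0.902 to 15.4 fpm, 3.12), unc-38 (0.801 to 8.40 fpm, 2.40) and tbx-2 (0.562 to 5.01 fpm, 1.95), which encode an intraflagellar transport protein, a peptide receptor, an acetylcholine receptor subunit and a T-box factor. The astacin metalloprotease genes nas-36 and nas-32 rose (91.8 to 387 fpm and 1.99 to 15.7 fpm, 2.11 and 2.47), while nas-4 (145 to 45.6 fpm, -1.65) and nas-28 (14.7 to 5.81 fpm, -1.20) fell [1, 1, 3 and 4], out of 13. Of the pals genes, of the intracellular pathogen response, pals-27 (2.11 to 30.7 fpm, 3.35) rose and pals-18 (38.3 to 5.08 fpm, -2.73), pals-25 (72.5 to 20.1 fpm, -1.79) and pals-22 (323 to 198 fpm, -0.71) fell, out of 15. nas-28 and pals-22 lost their calls without N2 replicate 1 and without N2 replicate 2, with limma adjusted p-values of 0.205 and 0.093 for nas-28 and 0.468 and 0.321 for pals-22. ift-20, unc-38, nas-4 and pals-18 overlap other annotated genes.

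**Figure D2:**
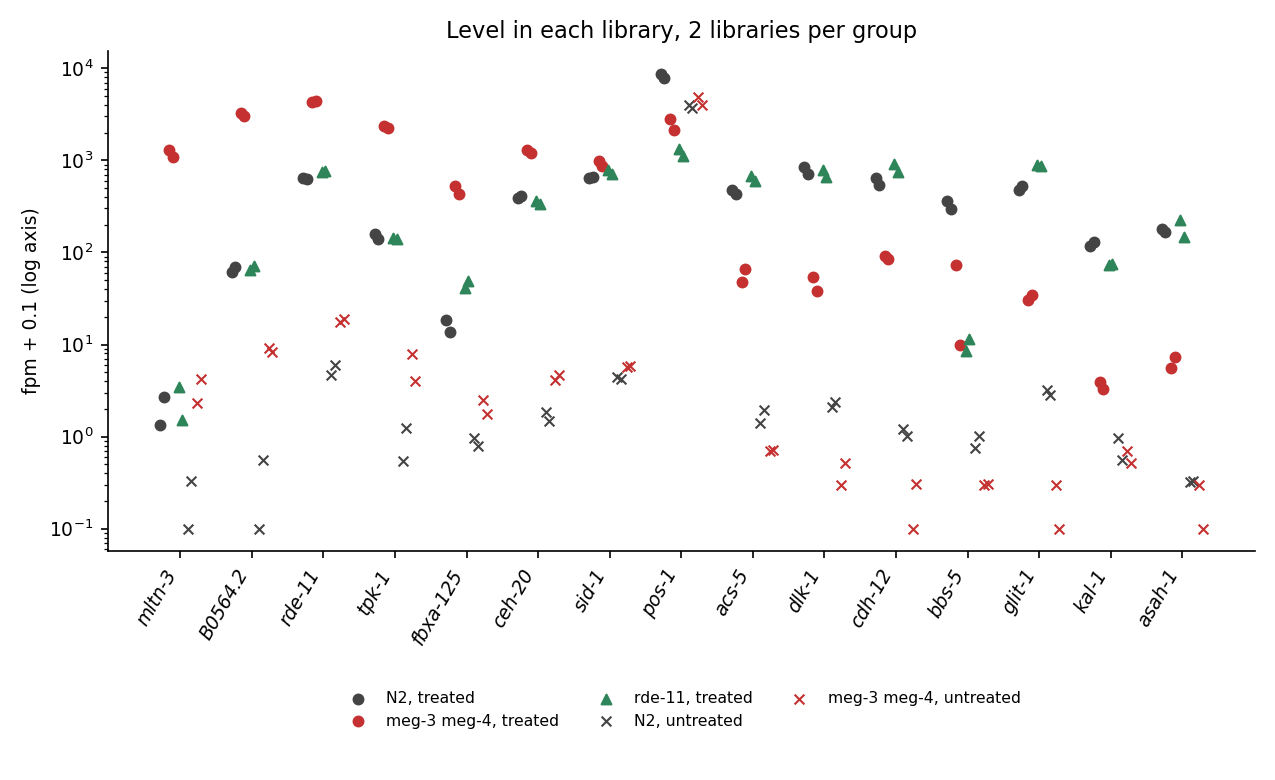
Level of 15 genes in each library (fpm + 0.1, log axis), 2 libraries per group: N2, meg-3 meg-4 and rde-11 in treated RNA (dots and triangles) and N2 and meg-3 meg-4 in untreated RNA (crosses). The first 7 genes lie higher and the other 8 lower in meg-3 meg-4 than in N2 in treated RNA, and all but pos-1 lie below 20 fpm in every untreated library.

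Lists of adaptors of ubiquitin ligases held many losses and some gains. F-box proteins bring substrates to SCF ligases, and MATH and BATH proteins include adaptors of CUL-3 ligases. Both families are large and vary between nematode lineages. Of 102 F-box A genes tested, 24 fell [12, 16, 28 and 28] and 2 rose, or 23.5% and 1.96% against the background of 8.94% and 1.87%. Of 77 F-box B genes, 22 fell [5, 3, 35 and 32], or 28.6%, and 0 rose. Of 28 F-box C genes, 9 fell [1, 1, 10 and 9], or 32.1%, and 3 rose [0, 0, 3 and 4]. Of 58 BATH and MATH genes, 10 fell [7, 9, 16 and 12], or 17.2%, and 5 rose [2, 2, 6 and 7]. The median changes were -0.40, -0.79, -0.55 and -0.14, against -0.15, so that of BATH and MATH genes was no lower than the background. Summed levels went from 7670 and 7655 fpm in N2 to 5881 and 5489 fpm in meg-3 meg-4 for F-box A genes. For F-box B genes they went from 6706 and 6687 to 5138 and 4811 fpm. F-box C sums were not lower, at 2349 and 2214 and then 2690 and 2599 fpm. Nor were those of BATH and MATH genes, at 13828 and 13497 and then 14460 and 13829 fpm. In these lists 10.7% and 8.62% rose, against 1.87%. The F-box B and C counts shrank most when an N2 library was left out.

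Single members of these families fell by far more than the medians. fbxa-184 went from 170.2 and 122 fpm in N2 to 8.46 and 9.09 fpm in meg-3 meg-4 (log2 change -3.90, SE 0.25, limma adjusted p = 1.5e-04). fbxb-95 went from 108 and 124 to 20.7 and 24.1 fpm (log2 change -2.32, SE 0.22, limma adjusted p = 7.1e-04). math-48 went from 48.5 and 47.98 to 2.75 and 3.03 fpm (log2 change -3.66, SE 0.23, limma adjusted p = 1.5e-04). The groups were far apart in all 3. Further falls were those of fbxa-120 (493 to 136 fpm, -1.86), fbxa-166 (100.4 to 18.9 fpm, -2.34), fbxa-216 (84.6 to 8.57 fpm, -3.16), math-31 (75.03 to 6.68 fpm, -3.30), math-44 (107 to 14.9 fpm, -2.77) and math-49 (180.2 to 22.3 fpm, -2.96), and of the pseudogene fbxa-149 from 1303 to 612 fpm (-1.09). fbxc-28 fell least (53.01 to 19.02 fpm, -1.43) of the members that lead their lists.

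A minority of the same families rose, some beside members that fell. fbxa-125 went from 18.5 and 13.6 to 524 and 427 fpm (log2 change 4.81, SE 0.23, limma adjusted p = 5.6e-05). bath-15 went from 188 and 188 to 579 and 549 fpm (log2 change 1.58, SE 0.14, limma adjusted p = 5.9e-04). bath-24 went from 1056 and 988 to 2473 and 2337 fpm (log2 change 1.23, SE 0.09, limma adjusted p = 2.8e-04), while bath-20, next to it on the same strand, went from 4495 and 4383 to 3361 and 3291 fpm (log2 change -0.42, SE 0.06, limma adjusted p = 0.00649). In the F-box C list, fbxc-45 (40.8 to 96.6 fpm, 1.23), fbxc-44 (120.1 to 243 fpm, 1.01) and fbxc-43 (1346 to 1853 fpm, 0.46) rose, and fbxc-43 and fbxc-44 are neighbours. fbxc-28, fbxc-45, fbxc-44 and fbxc-43 lost their calls without N2 replicate 1 and without N2 replicate 2, with limma adjusted p-values of 0.122 and 0.0574 for fbxc-28, 0.198 and 0.0816 for fbxc-45, 0.116 and 0.161 for fbxc-44 and 0.141 and 0.208 for fbxc-43. bath-20 lost its call without N2 replicate 1 (limma adjusted p = 0.07). bath-20 and fbxc-43 were also not called with the median gene centred (limma adjusted p = 0.743 and 0.283), and the 3 F-box C rises not with microRNAs centred (0.0928, 0.0953 and 0.353). Among core components of these ligases and of the proteasome, none of 19 Skp1-related and cullin genes, 20 E2 genes and 33 proteasome genes was called, with 5, 2 and 0 at an unadjusted p under 0.05 and none called by edgeR. Without 1 library, limma called 0, 0, 2 and 0 higher and 0, 0, 4 and 2 lower of the first, 0, 0, 0 and 1 higher and 0, 0, 1 and 1 lower of the E2 genes and 0, 0, 8 and 0 higher and 0, 0, 0 and 5 lower of the proteasome genes. The medians were -0.38, -0.19 and -0.01, so the median of the Skp1-related and cullin genes was near that of the F-box A genes.

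Lists of neuronal and signalling genes held another large set of losses. They also took in kinase, Wnt and Notch, G protein and insulin-like peptide genes, so the counts are not those of neuronal genes alone. In 16 lists of neuronal and signalling genes with 492 genes tested, 82 fell (16.7%) and 7 rose (1.42%), with a median of -0.41. Their summed level went from 19074 and 18698 fpm in N2 to 10211 and 10101 fpm in meg-3 meg-4. From which cells of the animal these small RNAs came was not tested.

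Of 32 synapse genes, 8 fell [4, 4, 10 and 11] and 0 rose (median -0.52). rimb-1, which encodes a scaffold of the presynaptic active zone, went from 173 and 146 to 5.50 and 5.49 fpm (log2 change -4.62, SE 0.23, limma adjusted p = 5.8e-05). dlk-1, which encodes a kinase of synapse formation and axon regrowth, went from 842 and 716 to 53.9 and 38.3 fpm (log2 change -4.07, SE 0.21, limma adjusted p = 7.8e-05). The mutant libraries held a small fraction of the N2 level in both genes. sad-1 (25.9 to 5.81 fpm, -2.02), egl-21 (24.1 to 5.56 fpm, -1.95), syd-2 (24.8 to 9.43 fpm, -1.31) and tom-1 (263 to 138 fpm, -0.93) fell too, and encode a kinase of presynaptic assembly, a carboxypeptidase that trims neuropeptides, the liprin-alpha scaffold and tomosyn. rimb-1, dlk-1, sad-1, syd-2 and tom-1 overlap other annotated genes. syd-2 and tom-1 lost their calls without N2 replicate 1 and without N2 replicate 2, with limma adjusted p-values of 0.093 and 0.137 for syd-2 and 0.22 and 0.215 for tom-1. pmk-3, a p38 kinase gene of the same pathway as dlk-1, fell from 517 to 214 fpm (-1.27).

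Of 32 genes of sensory cilia, 9 fell [9, 8, 14 and 13] and ift-20 rose (median -0.48). They spanned the transition zone, the intraflagellar transport particle, its kinesin motor and the BBSome. mks-1 of the transition zone went from 189 and 186 to 17.8 and 15.5 fpm (log2 change -3.42, SE 0.21, limma adjusted p = 1.2e-04). arl-13, a ciliary membrane GTPase gene, went from 235 and 190.0 to 24.7 and 20.6 fpm (log2 change -3.17, SE 0.22, limma adjusted p = 2.2e-04). osm-3, which encodes a kinesin motor of sensory cilia, went from 628 and 603 to 140.4 and 163 fpm (log2 change -2.02, SE 0.15, limma adjusted p = 2.9e-04). Each was lower in both mutant libraries than in both N2 libraries. bbs-5, a BBSome gene, had 359.9 and 298 fpm in N2 but 73.8 and 9.85 fpm in meg-3 meg-4 (log2 change -3.53, SE 0.75, limma adjusted p = 0.0292), so the mutant replicates were further apart from each other, in relative terms, than for the other cilium genes named. It was not called by edgeR (edgeR adjusted p = 0.0547). dyf-3 (94.04 to 18.4 fpm, -2.29), nphp-1 (40.9 to 7.55 fpm, -2.30), ifta-1 (29.5 to 2.63 fpm, -3.14) and mksr-2 (352 to 141 fpm, -1.32) fell as well. mks-1, arl-13, osm-3, bbs-5 and ifta-1 overlap other annotated genes.

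Axon guidance and adhesion genes gave 9 falls [6, 4, 12 and 15] and 1 rise, of unc-73, among 61 tested (median -0.34). kal-1, the homologue of the human anosmin gene, went from 118 and 128 to 3.80 and 3.22 fpm (log2 change -4.79, SE 0.23, limma adjusted p = 5.8e-05). The cadherin gene cdh-12 went from 649 and 538 to 92.4 and 84.9 fpm (log2 change -2.72, SE 0.17, limma adjusted p = 1.4e-04). The groups of each gene were far apart. cdh-1 (183 to 25.8 fpm, -2.78) and syg-2 (81.2 to 10.5 fpm, -2.83), a cadherin gene and an immunoglobulin adhesion gene of synaptic specificity, fell too. cdh-12, cdh-1 and syg-2 overlap other annotated genes. Of the Wnt ligands, cwn-1 (132 to 27.9 fpm, -2.20) and egl-20 (158 to 51.4 fpm, -1.60) fell, the called members [2, 2, 4 and 8] of 25 Wnt and Notch genes.

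Receptors and channels lost small RNAs more often than they gained them, as did all protein-coding genes tested (8.94% fell and 1.87% rose). The share that fell was 25.7% for peptide and amine receptors and 16.7% for potassium channels. It was 14.3% for chemoreceptors and 11.8% for the ligand-gated channel list below, nearer to that background. None of 7 glutamate receptor genes was called. Of 35 receptors for peptides and amines, 9 fell [5, 4, 10 and 9], led by the serotonin receptor gene ser-5 (73.6 and 63.02 to 4.86 and 5.49 fpm, -3.49), and frpr-13 rose. Of 119 chemoreceptor genes that passed the filter, of 1332 in the table, 17 fell [9, 10, 29 and 23] and 0 rose. srt-47 led them, from 56.2 and 66.1 to 1.06 and 1.52 fpm (log2 change -4.77, SE 0.25, limma adjusted p = 8.2e-05). Of 30 potassium channel genes, 5 fell [3, 3, 8 and 5], which were unc-103 (86.5 to 16.6 fpm, -2.31), kvs-4 (134 to 28.7 fpm, -2.16), shw-1 (131 to 29.2 fpm, -2.14), irk-3 (49.97 to 17.4 fpm, -1.48) and twk-21 (14.5 to 5.49 fpm, -1.26). The TRP channel genes moved in both directions. trp-4, which encodes a mechanosensory channel, fell from 477 and 499 to 11.4 and 16.1 fpm (log2 change -5.07, SE 0.22, limma adjusted p = 5.6e-05), ocr-3 and the degenerin gene deg-1 fell at lower levels (-1.81 and -2.08), and osm-9 rose (4.87 to 11.5 fpm, 1.09). irk-3, twk-21 and osm-9 lost their calls without N2 replicate 1 and without N2 replicate 2, with limma adjusted p-values of 0.0885 and 0.0603 for irk-3, 0.102 and 0.119 for twk-21 and 0.274 and 0.156 for osm-9. osm-9 was also not called with microRNAs centred (limma adjusted p = 0.125). ser-5, srt-47, unc-103, kvs-4, shw-1, irk-3, twk-21, trp-4, deg-1 and osm-9 overlap other annotated genes, piRNA genes in the case of srt-47.

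Of 34 genes of ligand-gated channels and GABA-B receptors, lgc-33 (139 to 26.6 fpm, -2.35), acr-17 (13.6 to 5.32 fpm, -1.19), acr-9 (11.01 to 4.51 fpm, -1.13) and gbb-1 (4.61 to 1.48 fpm, -1.20) fell [1, 1, 5 and 6] and unc-38 rose. acr-17, acr-9 and gbb-1 lost their calls without N2 replicate 1 and without N2 replicate 2, with limma adjusted p-values of 0.300 and 0.0635 for acr-17, 0.151 and 0.197 for acr-9 and 0.179 and 0.159 for gbb-1. gbb-1 lost its call without meg-3 meg-4 replicate 1 (limma adjusted p = 0.0685).

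Signals and their transducers fell in small numbers. The insulin-like peptide gene ins-17 went from 238 and 216 to 27.3 and 25.2 fpm (log2 change -3.06, SE 0.20, limma adjusted p = 1.5e-04), 1 of 6 tested. The neuropeptide genes nlp-62 (58.5 to 8.79 fpm, -2.60), nlp-12 (57.3 to 11.5 fpm, -2.22) and nlp-40 (7.49 to 2.31 fpm, -1.34) fell, out of 16. gsa-1 and egl-30 encode the alpha subunits of the stimulatory and the Gq-type G protein, and with gpa-4 they made 3 falls of 12: gsa-1 (414 to 115 fpm, -1.84), egl-30 (237 to 81.7 fpm, -1.52) and gpa-4 (53.9 to 20.9 fpm, -1.35). ckk-1, which encodes a kinase that activates calmodulin-dependent kinases, fell from 579 and 568 to 15.9 and 16.3 fpm (log2 change -5.07, SE 0.18, limma adjusted p = 2.9e-05), and 7 of 47 kinase genes of that list fell [4, 3, 9 and 10]. gpa-4 lost its call without N2 replicate 1 and without N2 replicate 2 (limma adjusted p = 0.129 and 0.127). nlp-40 lost its call without N2 replicate 2 (limma adjusted p = 0.219). nlp-62, egl-30 and ckk-1 overlap other annotated genes.

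Transcription factor lists showed 30 falls and 4 rises among 215 genes tested (13.95% and 1.86%, median -0.29). Nuclear hormone receptors made up most of them, with 18 falls [6, 7, 27 and 24] and 1 rise among 133. nhr-64 went from 100.5 and 96.2 to 6.76 and 6.63 fpm (log2 change -3.69, SE 0.22, limma adjusted p = 1.2e-04). Regulators with known physiological roles were among the rest. hlh-30, which encodes the TFEB-type regulator of autophagy genes, went from 188 and 132 to 15.4 and 16.7 fpm (log2 change -3.22, SE 0.24, limma adjusted p = 3.0e-04). daf-16, which encodes the FOXO factor of insulin signalling, went from 219.9 and 257 to 76.1 and 93.2 fpm (log2 change -1.49, SE 0.19, limma adjusted p = 0.00304). Groups did not overlap in either, as in every called gene. hlh-11 (149 to 29.1 fpm, -2.31), pes-1 (125 to 37.4 fpm, -1.72), ztf-31 (125 to 11.1 fpm, -3.34) and ceh-43 (52.6 to 3.07 fpm, -3.80) fell too. Of 24 homeobox genes, 5 fell [4, 4, 9 and 7], while ceh-20 rose. nhr-64, hlh-30, daf-16, hlh-11, pes-1 and ceh-43 overlap other annotated genes.

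In the 4 chromatin lists, 12 of 123 genes fell (9.76%, near the background) and 4 rose. The falls were 5 autosomal histone genes and 7 genes on X, and the rises were autosomal. Of 57 synthetic multivulva and chromatin genes, 4 fell [2, 2, 5 and 9] and 2 rose [0, 0, 15 and 2]. lin-15B, a repressor of germline genes in somatic cells, went from 101 and 91.2 to 15.9 and 18.2 fpm (log2 change -2.43, SE 0.22, limma adjusted p = 6.3e-04) and overlaps lin-15A. sdc-1, of the dosage compensation machinery, fell from 66.6 to 20.1 fpm (-1.68), and in the homeobox list ceh-39, an X-linked signal of sex determination, from 72.4 to 19.4 fpm (-1.85). Of 28 SET domain genes, set-28 (3.30 to 0.306 fpm, -1.73) and set-30 (6.01 to 1.13 fpm, -1.77) and the pseudogene set-33 (18.7 to 1.58 fpm, -2.94) fell [3, 3, 6 and 7], all on X, while set-23 (314 to 782 fpm, 1.31) and set-5 (141 to 249 fpm, 0.80) rose [1, 1, 8 and 2]. dpy-27, which encodes a condensin subunit of the dosage compensation complex, rose (7.98 to 17.97 fpm, 1.08). set-5 and dpy-27 lost their calls without N2 replicate 1 and without N2 replicate 2, with limma adjusted p-values of 0.433 and 0.213 for set-5 and 0.174 and 0.324 for dpy-27. set-5 and dpy-27 were also not called with microRNAs centred (limma adjusted p = 0.291 and 0.121). Of 31 histone genes, 5 fell and 0 rose [0, 0, 1 and 3]. They were his-61 (86.8 and 84.98 to 14.6 and 14.2 fpm, -2.50), his-16 (12.2 to 1.11 fpm, -2.65) and his-73 (9.16 to 2.07 fpm, -1.75), and the identical lines his-12 and his-43 (10.1 to 0.802 fpm, -2.63). Histone copies share sequence, so the split of reads between them is uncertain, and his-16 and his-73 overlap other annotated genes.

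Lists of cuticle and muscle genes held losses as well, though the muscle median of -0.14 was no lower than the background of -0.15. Of 46 genes of the collagen list that passed the filter, of 195 in the table, 11 fell [5, 6, 13 and 12]. col-111 led them, from 375 and 362 to 17.3 and 20.8 fpm (log2 change -4.21, SE 0.20, limma adjusted p = 5.6e-05), and overlaps psr-1. The list took in genes by their dpy and other names, and dpy-11 and dpy-23 among its falls and dpy-27, its only rise, are not collagen genes. Of 13 hedgehog-related genes, grd-16 (113 to 20.4 fpm, -2.42), grd-15 (17.8 to 2.96 fpm, -2.26) and grl-27 (31.97 to 6.25 fpm, -2.20) fell. cutl-10, of the cuticlin-like proteins of the cuticle, went from 143 and 149 to 11.8 and 10.4 fpm (log2 change -3.60, SE 0.21, limma adjusted p = 1.2e-04). In the molting list, nekl-1, a NIMA-type kinase gene, fell from 58.5 and 52.04 to 7.82 and 4.55 fpm (-3.01), so the list held 3 falls beside the 3 rises of mltn genes. Of 30 muscle genes, 6 fell [2, 2, 7 and 7] and 1 rose (median -0.14). tln-1, which encodes talin at muscle attachments, went from 131 and 166 to 28.7 and 33.2 fpm (log2 change -2.22, SE 0.22, limma adjusted p = 9.1e-04). unc-54, the major body wall myosin heavy chain gene, went from 19.2 and 14.8 to 1.48 and 2.27 fpm (log2 change -2.65, SE 0.28, limma adjusted p = 0.00119). grd-16, grd-15, nekl-1 and tln-1 overlap other annotated genes.

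In the 10 metabolism and stress lists, 27 of 293 genes fell (9.22%), a share near the background of 8.94%. Of 64 lipid genes, 10 fell [6, 3, 11 and 14] and 0 rose. acs-5, an acyl-CoA synthetase gene, went from 479.7 and 435 to 47.6 and 65.5 fpm (log2 change -3.01, SE 0.21, limma adjusted p = 2.1e-04). prx-11, which encodes a peroxisome biogenesis protein, went from 341 and 341 to 6.55 and 7.01 fpm (log2 change -5.46, SE 0.20, limma adjusted p = 2.9e-05). asah-1, an acid ceramidase gene, went from 181 and 166 to 5.50 and 7.20 fpm (log2 change -4.58, SE 0.23, limma adjusted p = 7.4e-05). In these 3 genes the mutant libraries held small remnants of the N2 level. spds-1, which encodes spermidine synthase, went from 293 and 252 to 11.2 and 10.04 fpm (log2 change -4.55, SE 0.21, limma adjusted p = 5.6e-05). Of 7 Nudix hydrolase genes, whose enzymes cleave nucleoside diphosphate derivatives, ndx-2 (397 to 7.47 fpm, -5.56), ndx-8 (114 to 31.4 fpm, -1.83) and ndx-1 (6.30 to 2.37 fpm, -1.13) fell. Detoxification genes gave 5 falls of 25 glutathione S-transferase genes, gst-37 (11.9 to 1.39 fpm, -2.43), gsto-3 (45.1 to 12.2 fpm, -1.79), gst-32 (6.75 to 1.80 fpm, -1.46), gst-15 (29.3 to 9.65 fpm, -1.55) and gst-16 (44.8 to 21.7 fpm, -1.01) [2, 4, 6 and 5]. Cytochrome P450 genes gave 3 falls and 1 rise of 27, none of which kept its call without each library. ndx-1 and gst-16 lost their calls without N2 replicate 1 and without N2 replicate 2, with limma adjusted p-values of 0.136 and 0.245 for ndx-1 and 0.433 and 0.238 for gst-16. gst-32 and gst-15 lost their calls without N2 replicate 1 (limma adjusted p = 0.0865 and 0.125). ndx-1 lost its call without meg-3 meg-4 replicate 1 (limma adjusted p = 0.0564). Of the ABC transporter genes, haf-4 of intestinal lysosome-related granules fell from 568 to 111 fpm (-2.34) and mrp-3 from 67.9 to 17.4 fpm (-1.91). prx-11, ndx-2, ndx-8, gst-32 and haf-4 overlap other annotated genes.

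Other large falls crossed these groups. frm-1, of the FERM domain proteins that link membranes to the cytoskeleton, went from 1256 and 1371 to 198 and 204 fpm (log2 change -2.70, SE 0.13, limma adjusted p = 5.6e-05). sosi-1 went from 1285 and 1394 to 254 and 271 fpm (log2 change -2.35, SE 0.12, limma adjusted p = 7.8e-05) and overlaps eri-6, a gene of the 26G RNA pathway. cdk-14, a cyclin-dependent kinase gene, went from 253 and 244 to 8.03 and 7.20 fpm (log2 change -4.86, SE 0.21, limma adjusted p = 5.6e-05). None of these pairs of groups overlapped, as in every called gene. On X, glit-1, which encodes a gliotactin relative, went from 482 and 523 to 30.02 and 34.5 fpm (log2 change -3.92, SE 0.18, limma adjusted p = 5.6e-05), and rme-6, an endocytic exchange factor gene for Rab5, from 86.6 and 102 to 5.28 and 8.34 fpm (-3.63). clec-12 (100.4 to 5.14 fpm, -4.06), fbxa-184 (146 to 8.77 fpm, -3.90), K03H6.5 (110.2 to 7.71 fpm, -3.66), Y53F4B.12 (272 to 22.2 fpm, -3.56), pqn-52 (134 to 10.95 fpm, -3.50) and C55C3.3 (165 to 14.1 fpm, -3.45) completed the largest falls of genes that overlap no other. B0001.5, Y46H3C.6, B0250.8, got-1.2 and bath-20, besides pos-1, were among the largest falls by difference in fpm. B0001.5 went from 1813 and 1823 to 562 and 575 fpm (-1.68). The aspartate aminotransferase gene got-1.2 went from 4285 and 4254 to 3307 and 2934 fpm (-0.45), the pseudogene Y46H3C.6 from 5801 and 6239.6 to 4456 and 4371 fpm (-0.45), and B0250.8 from 4697 and 4719 to 3462 and 3248 fpm (-0.49). The last 3 changed by less than 2-fold and were not called with the median gene centred (limma adjusted p = 0.695, 0.715 and 0.642). edgeR did not call got-1.2 (edgeR adjusted p = 0.0979). frm-1, cdk-14 and got-1.2 overlap other annotated genes.

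Immune, transport and cell cycle lists held few calls in the fit of all 4 libraries. Of 72 C-type lectin genes, many of them induced by pathogens, clec-12 (100.4 to 5.14 fpm, -4.06) and clec-238 (28.1 to 8.69 fpm, -1.61) fell [1, 2, 6 and 4], which is below the background share. Of 45 ABC transporter genes 4 fell [4, 3, 11 and 7], and of 62 solute carrier genes slc-17.7 (15.2 to 2.55 fpm, -2.25) and hmit-1.2 (102 to 40.97 fpm, -1.29) did [2, 1, 8 and 4]. Of 12 arrestin domain genes, arrd-15 fell from 200.3 and 216 to 22.6 and 18.4 fpm (-3.29) and arrd-18 from 5.51 to 1.30 fpm. Of 24 cyclin and cyclin-dependent kinase genes, cdk-11.2 (76.997 to 21.9 fpm, -1.77) and cya-2 (9.46 to 3.92 fpm, -1.09) fell beside cdk-14 and 0 rose [0, 0, 5 and 0]. Of 41 respiratory chain genes, ucr-2.1 (22.2 to 2.32 fpm, -2.82), gas-1 (33.9 to 11.6 fpm, -1.47) and sdhb-1 (9.02 to 3.05 fpm, -1.35) fell [1, 1, 4 and 13] and cox-17 (58.5 to 121 fpm, 1.04) rose [0, 0, 3 and 2]. ucr-2.1 encodes a core subunit of complex III, gas-1 one of complex I and sdhb-1 one of complex II. The patched-related genes ptc-3 (32.9 to 10.3 fpm, -1.61) and daf-6 (10.7 to 2.85 fpm, -1.65) fell [3, 2, 4 and 2], out of 16. Among 32 glucuronosyltransferase genes of detoxification, ugt-64 fell (-1.73) [0, 1, 4 and 3] and ugt-22 rose (2.88 to 24.9 fpm, 2.68). hmit-1.2, cya-2, gas-1, sdhb-1 and cox-17 lost their calls without N2 replicate 1 and without N2 replicate 2, with limma adjusted p-values of 0.193 and 0.0699 for hmit-1.2, 0.179 and 0.209 for cya-2, 0.0822 and 0.0526 for gas-1, 0.0832 and 0.102 for sdhb-1 and 0.222 and 0.209 for cox-17. clec-238 and ugt-64 lost their calls without N2 replicate 1 (limma adjusted p = 0.0629 and 0.0678). arrd-18 lost its call without N2 replicate 2 (limma adjusted p = 0.0581). With microRNAs centred cox-17 was not called (limma adjusted p = 0.112). hmit-1.2, cdk-11.2, cya-2, gas-1, cox-17, ptc-3, ugt-64 and ugt-22 overlap other annotated genes.

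The sdz genes, found downstream of the embryonic regulator SKN-1, had the highest share of falls of any list with at least 10 genes tested, 7 of 13 [2, 1, 7 and 7], with a median of -0.98. sdz-14 went from 183 and 193 to 89.6 and 77.7 fpm (log2 change -1.16, SE 0.18, limma adjusted p = 0.0073), and sdz-28 from 11.004 and 10.98 to 2.96 and 2.65 fpm (-1.66). sdz-14 lost its call without N2 replicate 1 and without N2 replicate 2 (limma adjusted p = 0.112 and 0.141). sdz-14 overlaps another annotated gene. DESeq2 called 2 of the 13 sdz genes lower, and edgeR 5.

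Lists of germ cells, embryos and dividing cells held few rises in the fit of all 4 libraries, and this depended on meg-3 meg-4 replicate 1. In the 5 germline and embryo lists, 11 of 135 genes fell (8.15%, near the background), 7 of them sdz genes, and 0 rose. Of 48 germ cell and oocyte genes, pos-1 and pal-1 (13.6 to 5.40 fpm, -1.19) fell [1, 1, 4 and 8] and 0 rose [0, 0, 11 and 0]. Of 51 splicing factor genes, the X-linked snrp-40.1 (16.4 to 3.88 fpm, -1.80) fell [1, 1, 2 and 4] and 0 rose [0, 0, 13 and 0]. Of 79 ribosomal protein genes, rpl-11.2 (40.5 to 4.26 fpm, -3.01) and rps-17 (31.3 to 13.3 fpm, -1.18), rpl-20 (45.1 to 22.2 fpm) and rps-21 (26.3 to 12.99 fpm, -0.96) fell [1, 1, 4 and 19]. Of 26 genes of sperm formation, spe-41 (164 to 57.8 fpm, -1.49) and spe-47 (137 to 46.2 fpm, -1.55) fell and fer-1 (2.62 to 9.05 fpm, 1.47) rose. pal-1, rps-17, rpl-20 and rps-21 lost their calls without N2 replicate 1 and without N2 replicate 2, with limma adjusted p-values of 0.102 and 0.193 for pal-1, 0.266 and 0.139 for rps-17, 0.333 and 0.353 for rpl-20 and 0.27 and 0.456 for rps-21. fer-1 lost its call without N2 replicate 2 (limma adjusted p = 0.0761). pal-1, spe-47 and fer-1 overlap other annotated genes. rpl-20 and rps-21 were not called with microRNAs centred (limma adjusted p = 0.0578 and 0.0521). In 25 of the 92 lists, with 498 genes tested, no gene was called by limma, while 48 had an unadjusted p under 0.05 and edgeR called 1. Among them were 40 meiosis genes, 42 kinetochore and spindle genes, 40 translation factor genes, 32 tRNA synthetase genes, 26 nuclear pore genes, 46 chaperone genes, 38 genes of major sperm and other sperm-specific proteins and the 6 yolk genes. Without meg-3 meg-4 replicate 1, however, many of these were called higher: 24 kinetochore and spindle, 15 meiosis, 8 nuclear pore, 5 chaperone, 4 translation factor and 4 tRNA synthetase genes. Without replicate 2, 10 chaperone, 6 tRNA synthetase, 5 translation factor, 3 meiosis, 2 nuclear pore and 1 kinetochore and spindle genes were called lower. With N2 replicate 1 or N2 replicate 2 left out, none of these lists had a call, nor had the sperm protein and yolk lists in any of the 4 fits. The medians of the meiosis, kinetochore and yolk lists were above 0, at 0.14, 0.22 and 0.25. A missing call does not show that a level did not differ.

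**Figure D3:**
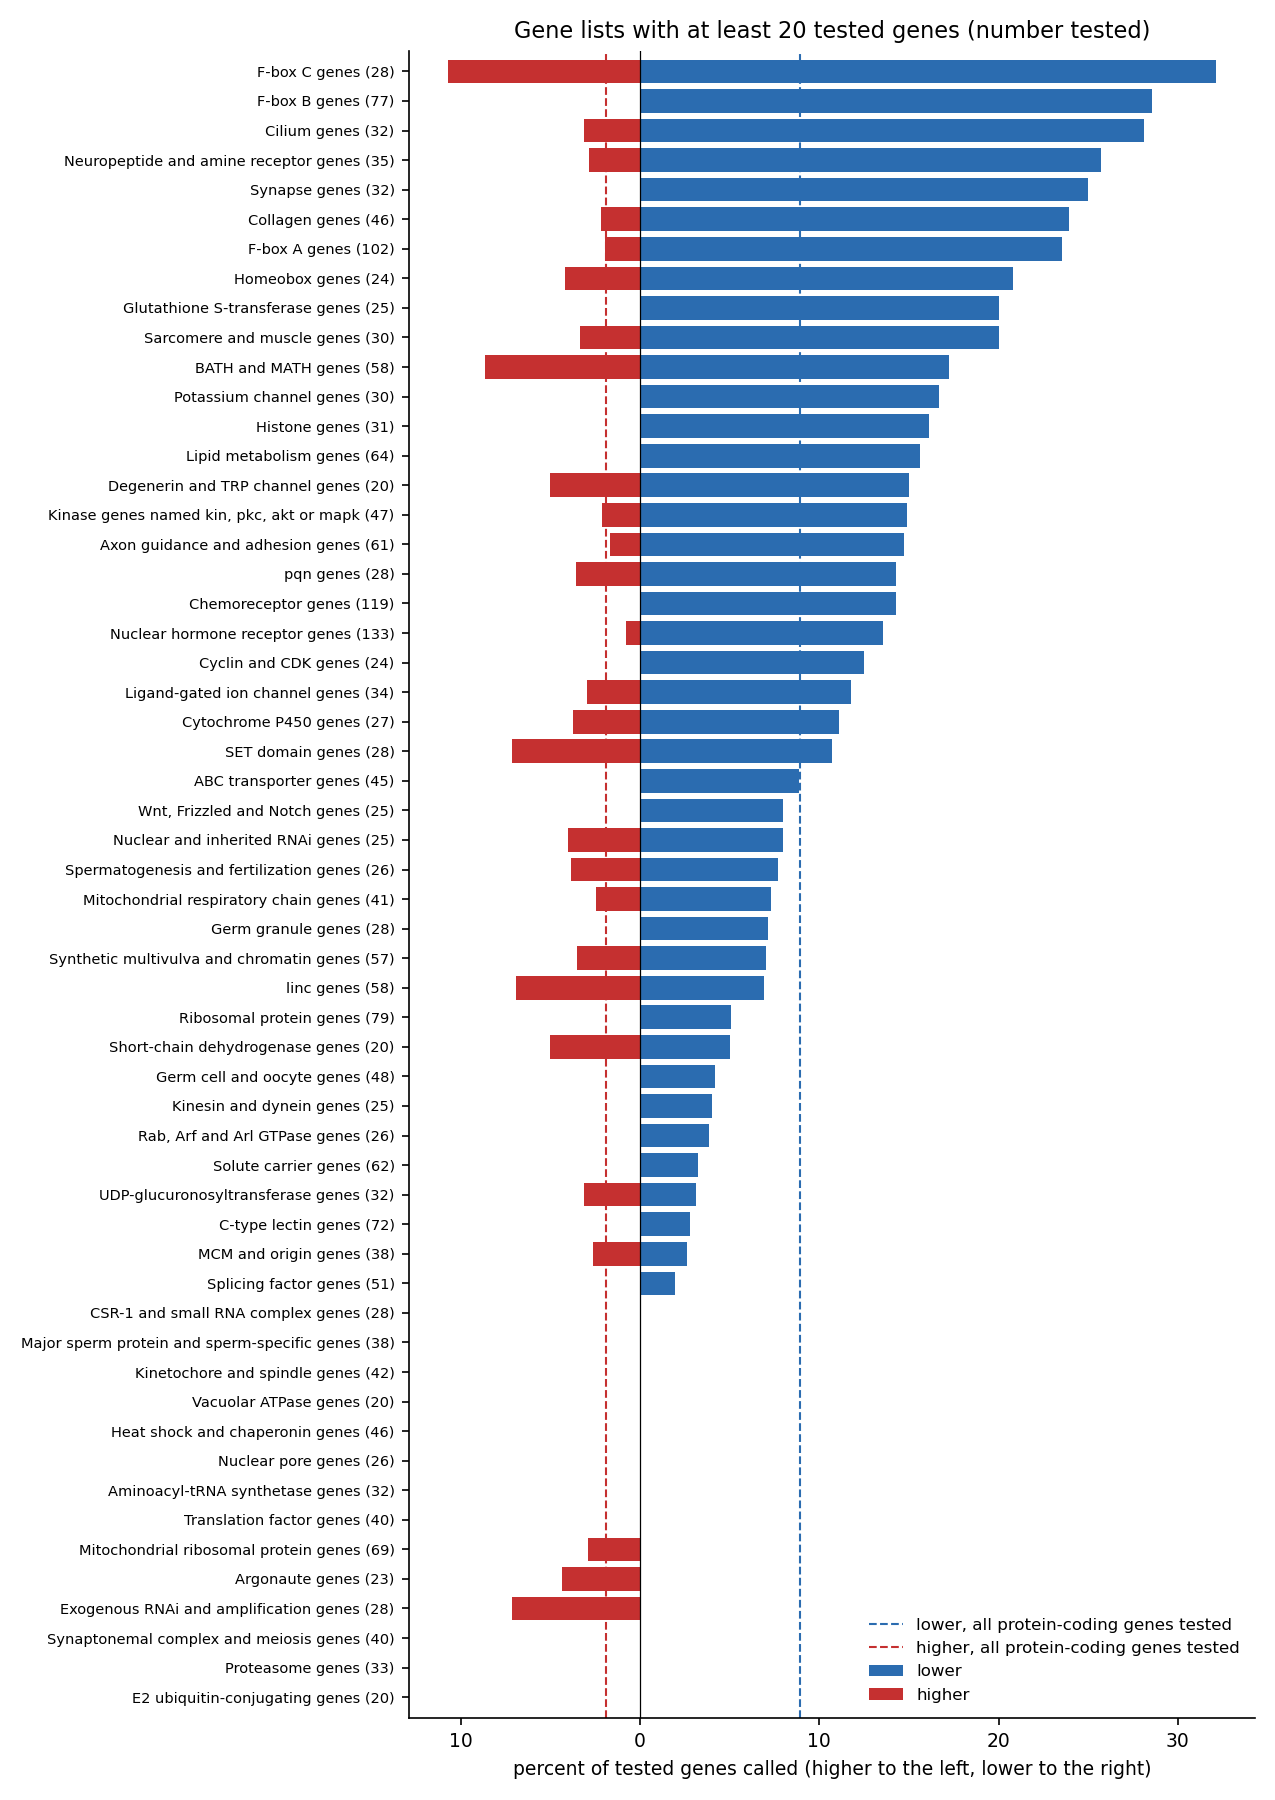
Share of tested genes that fell (blue, to the right) or rose (red, to the left) in meg-3 meg-4, in percent, for each list with at least 20 tested genes; the number tested is in brackets. Dashed lines mark the shares over all protein-coding genes, 8.94% and 1.87%. F-box, cilium and synapse lists lie at the top, and meiosis, kinetochore and proteasome lists at 0 in this fit of all 4 libraries, which was not so without meg-3 meg-4 replicate 1.

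Losses were more frequent on the X chromosome than on the autosomes. Of 1111 protein-coding genes of X tested, 232 fell (20.9%) and 4 rose. Of 9895 autosomal ones, 752 fell (7.60%) and 202 rose. meg-3 and meg-4 are on X and count among its falls. The single autosomes had 6.09% to 8.25% of genes that fell. The summed level of X genes was 46249 and 46529 fpm in the N2 libraries and 31438 and 28927 fpm in the meg-3 meg-4 libraries. For autosomal genes it was 543721 and 572168 fpm in N2 and 517546 and 580118 fpm in meg-3 meg-4. The groups of sums were apart on X and overlapped on the autosomes. In the fits without N2 replicate 1, N2 replicate 2, meg-3 meg-4 replicate 1 and meg-3 meg-4 replicate 2, 129, 122, 323 and 297 X genes fell.

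The share that fell was also higher on X at matched level and among genes that overlap no other. X genes had fewer reads, with a median of 5.10 fpm in N2 against 15.7 fpm, and the share that fell was lowest at 1 to 3 fpm on X and on the autosomes. In each of the 7 ranges of level, the last of which held 5 X genes only, the share that fell was higher on X. It was 62.4% of 101 X genes against 9.31% of 2332 autosomal genes at 30 to 100 fpm. Among genes that overlap no other annotated gene, 143 of 677 fell on X (21.1%) and 413 of 5724 on the autosomes (7.22%). The median change over all tested X genes was -0.45, against -0.13 on the autosomes. Genes are not independent replicates, so these shares are a description. Of the F-box, BATH and MATH genes that fell, 3 of 61 were on X, and 35 were on chromosome II, which holds 119 of the 244 members tested.

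**Figure D4:**
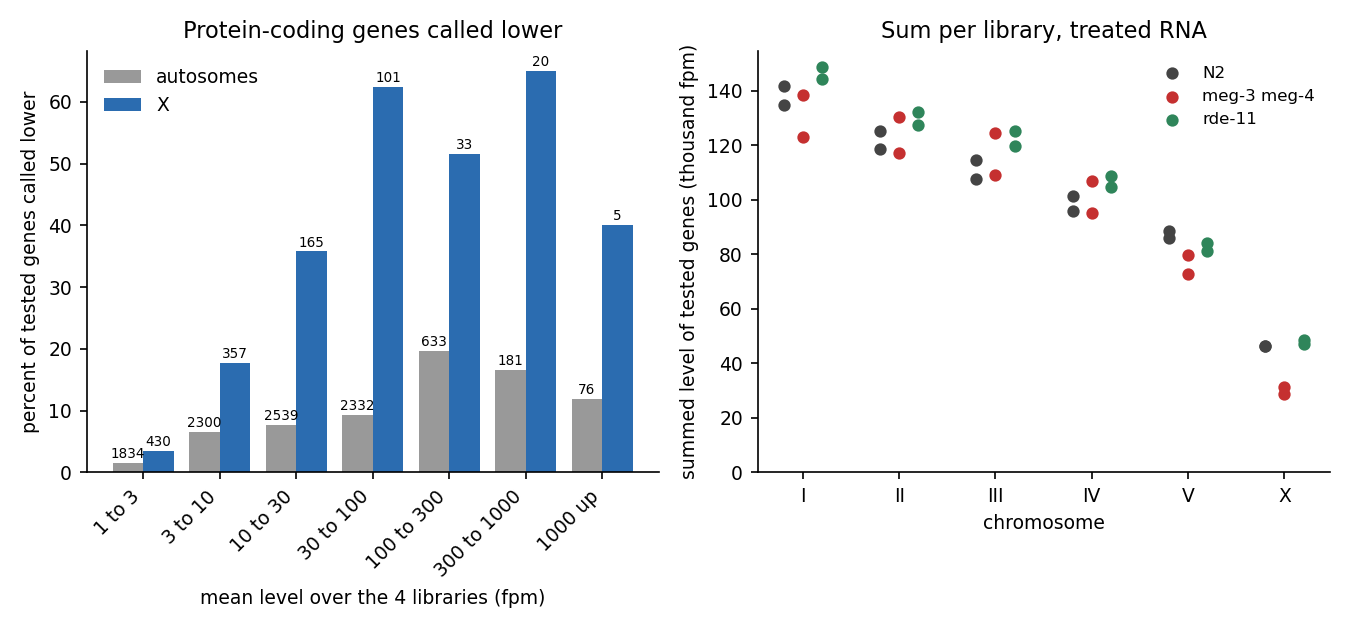
Left, share of tested protein-coding genes that fell in meg-3 meg-4, in percent, by mean level over the 4 libraries (fpm), for X and the autosomes, with the number tested above each bar. Right, summed level of tested protein-coding genes on each chromosome in each treated library (in units of 1000 fpm). X bars are the taller in every range of level, and on X and on V the meg-3 meg-4 points lie below those of N2 and rde-11.

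Neighbouring genes were called in the same direction more often than tested genes in general. Of 187 protein-coding genes that rose and have a tested, non-overlapping neighbour, 20 had a neighbour that rose (10.7%, against 3.29% of all 9482 tested). Of 801 that fell, 177 had a neighbour that fell (22.1%, against 11.98%). Of the 187 that rose, 26 had a neighbour that fell (13.9%, against 11.98%), and of the 801 that fell, 28 had one that rose (3.50%, against 3.29%). These shares are a description and were not split by chromosome, although falls were more frequent on X. Whether neighbours shared reads was not tested. Besides rde-11 and B0564.2, T23G11.11 rose from 147 and 137 to 619 and 515 fpm next to T23G11.1, which rose from 24.05 and 22.7 to 122 and 108 fpm. Opposite changes also met at short range. B0250.7 rose from 598 and 608 to 2127 and 2022 fpm (1.78), between B0250.8, which fell (-0.49), and calf-1, a gene of calcium channel assembly, which fell from 224 and 235 to 58.1 and 59.1 fpm (-1.95).

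Pseudogenes fell in a larger share than protein-coding genes (8.94%), and small nucleolar RNA genes rose in a larger share than genes in all (1.54%). Of 188 pseudogenes tested, 38 fell (20.2%) and 7 rose, with a median of -0.35. Y54G2A.42 went from 149 and 182 to 1.69 and 2.65 fpm (log2 change -5.73, SE 0.26, limma adjusted p = 5.6e-05), dct-10 from 1005 and 1045 to 215 and 213 fpm (-2.26) and F47B7.6 from 579 to 115 fpm (-2.32). Of 156 small nucleolar RNA genes, 14 rose (8.97%) and 4 fell. ZK185.9, which overlaps a protein-coding gene, went from 73.2 and 68.3 to 715 and 476 fpm (log2 change 3.03, SE 0.22, limma adjusted p = 2.5e-04). T26A8.6, which overlaps none, went from 62.8 and 62.1 to 217 and 200.2 fpm (1.72). rpr-1, the RNA of ribonuclease P, rose from 111 and 110.3 to 774 and 525 fpm (log2 change 2.52, SE 0.21, limma adjusted p = 4.1e-04) and overlaps ints-8. Of 67 long intergenic RNA genes, 5 rose and 6 fell, with linc-6 going from 759 and 757 to 2324 and 2213 fpm (1.58) and linc-32 from 24.5 and 21.2 to 2.54 and 3.60 fpm (-2.56). Y54G2A.42 and linc-6 overlap other annotated genes.

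piRNAs and microRNAs carry a monophosphate from the start, and piRNA genes were rarely called. Of 4063 piRNA genes tested, 1 rose and 12 fell, and they held 6.86% and 6.94% of the N2 libraries and 6.74% and 5.60% of the meg-3 meg-4 libraries. MicroRNAs held 20.6% and 18.2% in N2 and 24.3% and 20.6% in meg-3 meg-4, ranges that overlap. Of 164 microRNAs, 7 rose and 2 fell. The rises at a mean of at least 50 fpm were mir-70 (4333 to 6681 fpm, 0.62), mir-71 (2466 to 3284 fpm, 0.42), mir-246 (4179.7 to 5455 fpm, 0.39), mir-237 (8844 to 10600.1 fpm, 0.26), mir-57 (11692 to 13627 fpm, 0.22) and mir-72 (15759.5 to 18238 fpm, 0.21), and with microRNAs centred only mir-70 kept its call (0.38, limma adjusted p = 0.0171). mir-57 and mir-72 then turned, to -0.03 and -0.04. mir-71, mir-246 and mir-72 lost their calls without N2 replicate 1 (limma adjusted p = 0.326, 0.126 and 0.0596). mir-237 and mir-57 lost their calls without N2 replicate 2 (limma adjusted p = 0.185 and 0.0907). mir-237, mir-57 and mir-72 lost their calls without meg-3 meg-4 replicate 1 (limma adjusted p = 0.0722, 0.0516 and 0.0541). mir-257 fell, from 71.5 and 72.6 to 12.05 and 13.8 fpm (log2 change -2.39, SE 0.22, limma adjusted p = 7.0e-04), and unlike these it had only 0.438 and 0.457 fpm in the untreated N2 libraries.

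Most genes called had low levels in untreated RNA, which was not particular to them. All protein-coding genes tested summed to 589971 and 618697 fpm in treated and 31770 and 40481 fpm in untreated N2. Genes that fell had a median of 39.9 fpm in treated and 0.224 fpm in untreated RNA of N2, and genes that rose 58.4 and 0.781 fpm. Their sums differed in this: genes that fell had 5369 and 5483 fpm in all in the untreated N2 libraries, while genes that rose, among them abundant microRNAs, had 147082 and 164814 fpm there, more than in treated N2. In a limma fit over 8 libraries, the change in treated RNA differed from that in untreated RNA for 557 of 16459 genes, more positive for 81 (0.492%) and more negative for 476 (2.89%). Leaving out any 1 of the 8 libraries left 32 to 45 genes with a more positive and 187 to 351 with a more negative change. The interaction shares the treated libraries with the calls in treated RNA, and untreated levels under 1 fpm leave little room for a change on the log2(fpm + 1) scale, so values are given side by side. mltn-3 had 0 and 0.228 fpm in untreated N2 and 2.19 and 4.14 fpm in untreated meg-3 meg-4, and tpk-1 0.438 and 1.14 and 7.77 and 3.93 fpm. Both were higher in both untreated meg-3 meg-4 libraries as well, at a small fraction of the treated level. rpr-1, in contrast, had 228 and 264 fpm in untreated N2 and 232 and 242 fpm in untreated meg-3 meg-4 (interaction 2.57, limma adjusted p = 0.00162).

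The other mutant of the series, which was compared with meg-3 meg-4 in a limma fit of all 6 treated libraries, had levels nearer to N2 at the called genes as a group. Relative to rde-11, 2051 of 16340 genes were lower in meg-3 meg-4 (12.6%) and 744 higher (4.55%). The balance of that count depended on scaling: with the median gene centred, 823 were lower and 1148 higher. Without rde-11 replicate 1 or 2, 680 and 792 were lower and 314 and 330 higher, and without meg-3 meg-4 replicate 2, 4313 were lower. Since both comparisons use the meg-3 meg-4 libraries, their levels are set side by side. The genes were also picked by their difference between meg-3 meg-4 and N2, which by itself places a strain without that difference nearer to N2. The genes that rose against N2 had medians of 58.4, 179 and 47.5 fpm in the 3 strains, N2 first and rde-11 last. Those that fell had medians of 39.9, 10.3 and 32.2 fpm. mltn-3 had 3.34 and 1.41 fpm in the rde-11 libraries, tpk-1 145 and 139 fpm, and the rde-11 gene 744 and 758 fpm, close to N2. trp-4 had 776 and 709.5 fpm and kal-1 72.1 and 74.1 fpm, above meg-3 meg-4 in both libraries.

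Some genes with losses were also low in rde-11. pos-1 had 1312 and 1116 fpm in the rde-11 libraries, below the meg-3 meg-4 level (meg-3 meg-4 minus rde-11 1.00, limma adjusted p = 9.5e-04). arl-13 had 18.1 and 12.9 fpm, bbs-5 8.45 and 11.5 fpm, fbxa-216 8.45 and 5.44 fpm and ztf-31 11.2 and 7.85 fpm. For these 4 genes the limma adjusted p between the mutants was 0.146, 0.206, 0.441 and 0.632, which does not show that the levels were equal. nas-36 rose in meg-3 meg-4 and had 447 and 399.7 fpm in rde-11 (limma adjusted p between the mutants = 0.732). The summed level of X genes was 48605 and 47087 fpm in the rde-11 libraries, above both meg-3 meg-4 libraries.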

How the data were processed

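Small RNA libraries of whole animals, 2 per group in 6 groups, were read from the deposited table of meg-3 meg-4 against N2 in treated RNA and, for the comparisons named as such, from the tables of untreated RNA and of rde-11. Per the file headers, the authors deposited fpm values, which are CPM values with no correction for length, for each library. They also deposited a log2 change and an adjusted p-value for each gene, computed before deposit. Tools named without versions in the submitters' processing notes are HTSeq, Bowtie2, cutadapt and DESeq2, with the build ce10. Strandedness of the counting, handling of multiply mapped reads and read lengths were not given in the sources used here. The 6 columns of averages were not used. Libraries held 4189401 to 5278777 assigned reads; reads were recovered from the fpm steps, and 100% of values came out whole within 0.01 reads. A count of 0 allows up to 3 reads (0.568 to 0.716 fpm), which covers counting error only.

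Of 42048 genes, 31183 had a read in the 4 libraries and 16253 a mean of at least 1 fpm. Names, classes, chromosomes and overlaps came from the Ensembl annotation of WBcel235, which matched 41759 identifiers (99.3%); it is not the build of the files, so no coordinates are given. Lines identical to another line numbered 2337 and held 8.71% of all fpm. The test was limma 3.58.1 (R 4.3.3, trended variance) on log2(fpm + 1), with Benjamini-Hochberg adjustment over all genes tested. The interaction of strain and RNA treatment was fitted over 8 libraries, and meg-3 meg-4 was compared with rde-11 over 6. The fits were tested on simulated data. Alternatives were edgeR 4.0.16 (quasi-likelihood, TMM) and DESeq2 1.42.0 on the recovered reads, other filters, pseudocounts and centrings, a replicate block, the 3 strains in 1 fit, identical lines counted once, and each library left out.

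The comparison and the 92 gene lists were chosen with earlier results of these data known. Genes were named by a rule: in each direction, the 12 called protein-coding genes with the largest log2 change at a mean of at least 50 fpm and without overlap, and the 8 called genes with the largest difference in fpm; in each list the called member with the largest change in each direction at a mean of at least 10 fpm, or all called members where there were 5 or fewer; pos-1, meg-3, meg-4, rde-11, B0564.2 and sid-1; and called microRNAs at a mean of at least 50 fpm. Some list members that met it are given by count only. Named outside it, after their values were seen, were B0250.7, bath-24, calf-1, cdh-1, cdh-12, ceh-39, citk-1, dlk-1, dyf-3, egl-21, F47B7.6, fbxa-120, fbxa-149, fbxa-166, fbxa-216, fbxc-43, fbxc-44, frpr-13, ifta-1, lin-15A, math-31, math-44, math-49, mif-2, mir-257, mks-1, mksr-2, mltn-4, mltn-5, nphp-1, pmk-3, qdpr-1, rpr-1, sad-1, sdc-1, sdz-28, syd-2, syg-2, T23G11.1, T23G11.11, T26A8.6, tom-1, unc-54, Y54G2A.42 and ZK185.9.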

Additional observations from a re-analysis of the deposited data

Results flagged for a closer look

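For 5 named genes the change from N2 to meg-3 meg-4 went one way in treated RNA and the other way in untreated RNA, and the difference between the changes (treated minus untreated, log2) passed limma's interaction test. nekl-1 went from 0 and 0 to 0.199 and 0.207 fpm in untreated RNA against its fall in treated RNA (interaction -3.27, limma adjusted p = 0.00187). pos-1, the fed target, went from 3959 and 3679 to 4869 and 3969 fpm in untreated RNA (interaction -1.97, limma adjusted p = 0.00126). In untreated RNA the lower meg-3 meg-4 library lay just above the higher N2 library, and the meg-3 meg-4 libraries differed from each other by more than this gap. daf-16 went from 1.31 and 1.37 to 1.79 and 1.45 fpm in untreated RNA (interaction -1.64, limma adjusted p = 0.0225), and lev-11, which encodes tropomyosin, from 23.8 and 21.7 to 9.51 and 10.2 fpm in treated and from 0.219 and 0.228 to 0.398 and 0.621 fpm in untreated RNA (interaction -1.43, limma adjusted p = 0.0442). T23G11.1, whose treated level rose, went from 31.6 and 43.8 to 21.9 and 19.04 fpm in untreated RNA (interaction 3.08, limma adjusted p = 0.00126). nekl-1 and lev-11 had at most 3 reads in each untreated library, so their untreated changes carry no information on direction. At 1.31 to 1.79 fpm, with 1 read worth 0.199 to 0.228 fpm, daf-16 had few reads there too. The direction of its untreated change is therefore uncertain. daf-16, lev-11 and nekl-1 overlap other annotated genes.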

How the results depend on the processing

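No gene called in treated RNA was called in the opposite direction under any alternative, while the counts moved. edgeR on the recovered reads called 315 genes higher and 909 lower, 250 and 909 of them shared with limma. DESeq2 called 263 and 657 (132 lower protein-coding genes of X), as in the authors' deposited table. Over all changes, higher calls made up 28.6% with DESeq2 and 35.9% without meg-3 meg-4 replicate 1. With microRNAs centred, 118 genes were higher against N2, 52 had a more positive interaction, and 405 were higher and 4083 lower than in rde-11. mir-57 and mir-72 then reversed, to -0.0264 and -0.0366. With the median gene centred, a shift of -0.11, the interaction gave 34 and 256 calls and the comparison with rde-11 1148 higher and 823 lower.

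The interaction was the most dependent on filter and pseudocount, with 309 negative calls at a mean of at least 10 fpm, 52 positive and 309 negative with no filter, and 40 and 234 at a pseudocount of 0.5 fpm. Without a filter, 1359 genes were lower than in rde-11. Same-numbered replicates deviated together (r = 0.738 across 2633 genes of at least 50 fpm, from 2 pairs), but no label says that a number marks a shared batch. With a replicate block, 541 genes were higher, 2048 lower and 364 lower on X, the interaction had 130 positive calls, and 1124 and 4034 genes were higher and lower than in rde-11. Leaving out each library gave 137 to 989 genes higher and 599 to 1947 lower, 122 to 323 lower on X, 32 to 45 and 187 to 351 for the interaction, and 314 to 973 and 680 to 4313 against rde-11. Of 270 genes that met the naming rule or were named after it, 183 were called without each library in turn, 248 by edgeR and 208 in the authors' deposited table. The causes of these differences were not tested. Reads under 3 in a library limit the lowest levels, and 2 libraries per group limit every test.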

Other observations

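The direction of calls changed with the reads behind a gene. Among protein-coding genes, 0.925% rose and 9.39% fell at a mean of 10 to 30 fpm. At 1000 fpm and above, 32.1% rose and 13.6% fell, out of 81 genes. The share that rose was larger in each higher range. The median change went from -0.19 at 10 to 30 fpm to 0.17 at 300 to 1000 fpm, but was 0.07 at 1000 fpm and above. On X the median change was -1.16 at 30 to 100 fpm and -0.72 at 300 to 1000 fpm, where all 20 X genes had a change below 0.

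Some called genes had their lowest level in rde-11. his-61 had 5.31 and 3.22 fpm in the treated rde-11 libraries, against 14.6 and 14.2 fpm in meg-3 meg-4. The long intergenic RNA gene linc-22 had 6424 and 6257 fpm in N2, 7876 and 7236 fpm in meg-3 meg-4 and 703 and 764 fpm in rde-11. In the changes deposited by the authors, linc-22 did not pass between meg-3 meg-4 and N2 (log2 change 0.46, DESeq2 adjusted p = 0.443).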
